A study of Homo sapiens with 12 samples.

Results

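The genes described here are the 47 complement and coagulation genes named by symbol. The rule uses no measured value, though the 47 were chosen with earlier results of these data known. Of these, 46 were listed in the count table of HepG2, among 17640 genes, and 45 in that of Huh7, among 18434 genes. C9, the pore-forming subunit of the membrane attack complex, was listed in neither table, and PLG, which encodes plasminogen, was listed for HepG2 alone. All listed members passed the filter on low counts, so 46 were tested in HepG2, 45 in Huh7 and 45 in comparisons between the lines.

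HepG2 and Huh7 are human liver cancer lines that still make many plasma proteins, and neither carried an introduced mutation per the labels. Cells of each line received Ctrl-siRNA, a control without a target, or UBL5 siRNA, both by Lipofectamine RNAiMAX, and were collected 52 h later per the labels, while the study's text gives another time. Each of the 4 groups gave 3 libraries of polyadenylated RNA, 12 in all. Whether the 3 libraries of a group came from separate transfections is not given in the sources used here, so each p-value is set against the spread of these libraries only, and that spread may be technical. UBL5 is a small ubiquitin-like protein that works with the spliceosome, and the comparison asked which transcripts changed with its siRNA. The study lists a single UBL5 siRNA, so effects of that siRNA on other targets cannot be told apart from loss of UBL5. It also reports apoptosis after UBL5 siRNA in both lines, and the part of this in the values below was not tested.

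Hepatocytes make most circulating clotting factors and complement proteins. In coagulation, tissue factor and factor VII start a chain of serine proteases that ends with prothrombin and the conversion of fibrinogen to fibrin, and serpins and the protein C pathway hold it back. In complement, C1, the lectin pathway and factor B lead to cleavage of C3, after which C5 to C9 assemble a membrane pore, and both plasma and membrane-bound regulators limit this on host cells.

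UBL5 itself was measured first. In HepG2 it stood at 62.6, 57.7 and 61.8 CPM (counts per 1000000 counts of the library, with edgeR's TMM factors) with Ctrl-siRNA and at 7.19, 4.48 and 2.97 CPM with UBL5 siRNA. The corresponding Huh7 values were 67, 69.5 and 65 CPM and 6.20, 6.44 and 5.59 CPM. The siRNA groups did not overlap in either line, with a log2 fold change of -3.63 ± 0.26 (SE, n = 3 against 3) in HepG2 (adjusted p = 8.4e-05) and -3.44 ± 0.07 in Huh7 (adjusted p = 2.9e-10, both by edgeR's quasi-likelihood test with Benjamini-Hochberg adjustment over all genes).

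Total counts ran from 19983681 to 29744471 per library in HepG2 and from 19469574 to 27158770 in Huh7. One HepG2 library, Ctrl-siRNA replicate 3, stood apart, with 1773 listed genes at 0 counts against 159 to 233 in the other HepG2 libraries. The columns of HepG2 replicate 3 of both siRNA groups have headers of another form than the rest, and whether they were processed alike is not given in the sources used here. The 8 hepatocyte markers, among them ALB and AFP, were all listed and summed to between 50618 and 61540 CPM in HepG2 and between 24086 and 25769 CPM in Huh7. Of 7 endothelial markers, 3 were listed in HepG2 (4.01 to 7.71 CPM in sum with Ctrl-siRNA and 5.07 to 9.35 with UBL5 siRNA) and 1 in Huh7 (at most 0.656 CPM). Of 7 leukocyte markers, 3 were listed in HepG2 (2.10 to 4.35 and then 5.81 to 9.56 CPM) and 1, CD14, in Huh7 (1.47 to 1.71 and then 4.17 to 5.19 CPM). All 6 fibroblast markers were listed, with sums of 8.10 to 14.7 and then 10.9 to 27.1 CPM in HepG2 and of 31.1 to 34.7 and then 17.4 to 29.8 CPM in Huh7. In HepG2 with UBL5 siRNA, COL1A2 held 0, 109 and 0 counts and COL3A1 9, 99 and 2. In Huh7 with UBL5 siRNA, COL1A2 held 7, 4 and 104 counts and COL3A1 2, 1 and 94, so single libraries carried most of these counts. KDR, TEK, PTPRC and CD3E were listed in neither line. Among the hepatocyte markers, APOA1 and RBP4 rose and AHSG fell in both lines, ALB rose in HepG2 and APOB fell in Huh7. Of the other markers, CD14 and COL1A1 rose in both lines, CDH5 and TIE1 rose and PECAM1 fell in HepG2, and PDGFRB rose and LUM fell in Huh7. Mitochondrial genes took 1.91% to 2.35% of counts in HepG2 controls and 2.75% to 3.61% with UBL5 siRNA, and 2.46% to 3.30% and then 2.66% to 3.72% in Huh7. The part of these in the results was not tested.

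In HepG2, 11 of 46 members rose and 9 fell with UBL5 siRNA, where 16.5% of all genes tested rose and 20.1% fell. In Huh7, 10 of 45 rose and 26 fell, where 34.9% of all genes rose and 36.4% fell. The median log2 fold change of the members was 0.08 in HepG2 and -0.28 in Huh7, against 0.01 and -0.01 over all genes tested. The 26 that fell in Huh7 are 57.8% of the members tested there, above the share of all genes. The biological coefficient of variation of edgeR, a measure of spread between libraries, was 0.189 in HepG2 and 0.066 in Huh7. Counts of calls therefore do not compare the size of effects between the lines. Without HepG2 Ctrl-siRNA replicate 3, 14 members rose and 12 fell in HepG2, and without HepG2 Ctrl-siRNA replicate 2, 7 rose. Without replicate 3 of both HepG2 groups, 12 rose and 13 fell, with C4BPB (adjusted p = 0.014) and C1R (0.0014) among those gained, in a fit of 2 against 2 libraries that was added after the data were seen. The shares of all genes given above are those with all libraries kept. In bulk RNA, fewer cells making a transcript and less transcript per cell cannot be told apart.

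**Figure D1:**
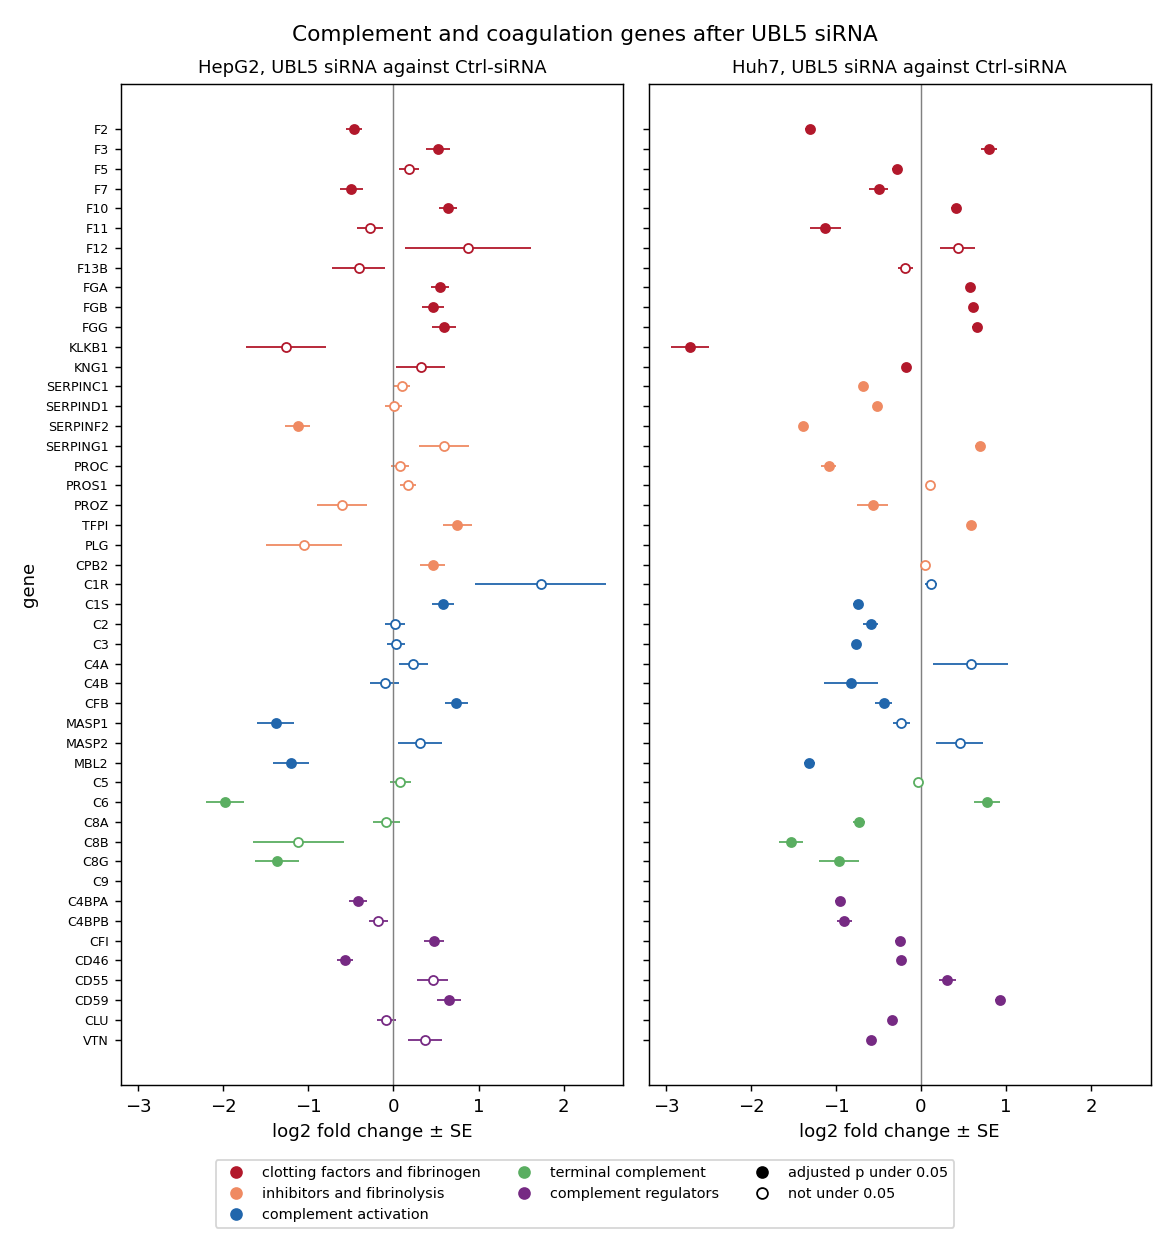
Log2 fold change of each member after UBL5 siRNA against Ctrl-siRNA, in HepG2 (left) and Huh7 (right), with bars for the SE (n = 3 against 3) and colors for the role. Points are filled where the adjusted p is under 0.05. More filled points lie left of 0 in Huh7 (26) than in HepG2 (9), and 36.4% of all genes tested fell in Huh7 and 20.1% in HepG2. The 3 fibrinogen chains lie right of 0 in both.

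Across both lines, 7 of the 45 members tested in both rose in both (F3, F10, FGA, FGB, FGG, TFPI and CD59), where 14.5% of all genes did so. Another 7 fell in both (F2, F7, SERPINF2, MBL2, C8G, C4BPA and CD46), against 16.4% of all genes. A further 4 members (C1S, CFB, C6 and CFI) were called in opposite directions, against 2.27% of all genes. For 18 members (40%) a change was called in Huh7 and not in HepG2, near the 38.5% of all genes. CPB2 and MASP1 were called in HepG2 and not in Huh7, as were 5.02% of all genes, and 7 members in neither line, against 23.3% of all genes.

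The genes of the fibrinogen chains, FGA, FGB and FGG, rose in both lines. FGA, for the alpha chain, read 714, 798 and 856 CPM with Ctrl-siRNA and 1012, 1183 and 1279.9 CPM with UBL5 siRNA in HepG2. In Huh7 it read 963, 1029 and 911 CPM and then 1468, 1417 and 1386 CPM. All UBL5 siRNA libraries lay above all control libraries of their line, and the log2 fold change was 0.55 ± 0.10 in HepG2 (adjusted p = 0.0033) and 0.58 ± 0.05 in Huh7 (adjusted p = 1.2e-06). FGB, for the beta chain, went from 428, 485 and 558 CPM to 572, 677 and 787 CPM in HepG2. Its Huh7 libraries went from 1739, 1807 and 1647 CPM to 2571, 2627 and 2616 CPM. The groups did not overlap. For FGB the log2 fold change was 0.46 ± 0.13 in HepG2 (adjusted p = 0.021) and 0.61 ± 0.05 in Huh7 (adjusted p = 2.9e-07). The HepG2 call of FGB was lost without Ctrl-siRNA replicate 1 (adjusted p = 0.068) or replicate 2 (adjusted p = 0.062), and likewise without UBL5 siRNA replicate 2 (0.060) or replicate 3 (0.066). FGG, for the gamma chain, measured 911, 941 and 1143 CPM with Ctrl-siRNA and 1208, 1546 and 1796 CPM with UBL5 siRNA in HepG2. In Huh7, FGG measured 655, 679 and 613 CPM and 968, 1013 and 1034 CPM. Again the groups were apart, by 0.60 ± 0.14 on the log2 scale in HepG2 (adjusted p = 0.011) and 0.65 ± 0.05 in Huh7 (adjusted p = 2.6e-07). The difference of the effect between lines was -0.0038 ± 0.12 for FGA, -0.12 ± 0.15 for FGB and -0.03 ± 0.17 for FGG (log2, HepG2 minus Huh7), none with an adjusted p under 0.05. As a share of all counts, the 3 chains went from 0.222% ± 0.0213 to 0.314% ± 0.0455 in HepG2 and from 0.352% ± 0.0158 to 0.508% ± 0.00114 in Huh7 (SD, n = 3).

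**Figure D2:**
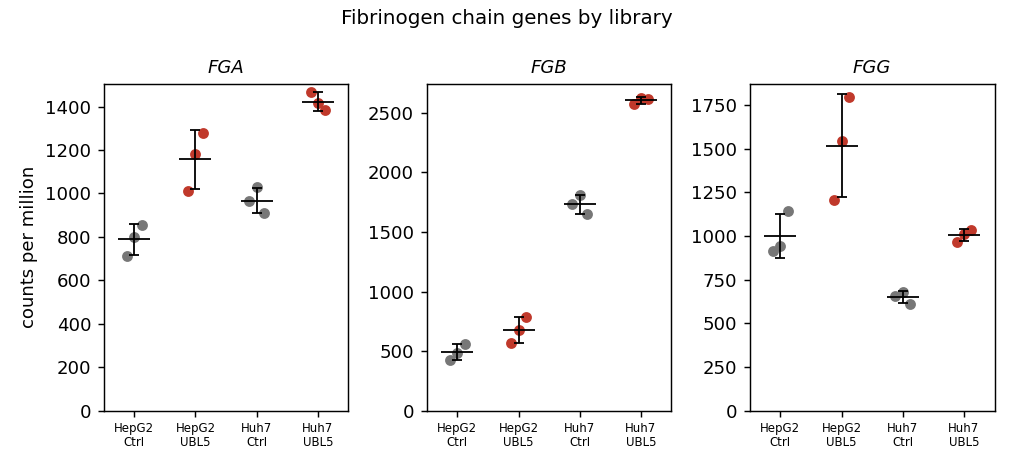
CPM of FGA, FGB and FGG in each of the 12 libraries (points), with the mean and SD of each group (bars, n = 3), gray for Ctrl-siRNA and red for UBL5 siRNA. In every panel the 3 UBL5 siRNA libraries of a line sit above its 3 control libraries.

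The 3 fibrinogen genes lie side by side on chromosome 4 of GRCh38, FGB at 154563011 to 154572807 on the plus strand, FGA at 154583126 to 154590742 and FGG at 154604134 to 154612967 on the minus strand (GENCODE release 44). Their promoters are shown as genes that moved together, beside those of F2 and MBL2, which fell in both lines, and of C6, which moved in opposite directions. Each line gives the 150 bases before the RefSeq start on GRCh38.p14, 5′ to 3′ on the gene's own strand. Capitals mark matches, on either strand, to GTTAAT (part of the site of HNF1, a hepatocyte transcription factor), TTGCNNAA (a C/EBP form), TTCNNNGAA (a STAT form) or TATAAA, a core promoter element. Overlaps between motifs were allowed. The windows are chr4:154590743-154590892 (minus), chr4:154562861-154563010 (plus), chr4:154612657-154612806 (minus), chr11:46719063-46719212 (plus), chr10:52772785-52772934 (minus) and chr5:41261470-41261619 (minus).
FGA: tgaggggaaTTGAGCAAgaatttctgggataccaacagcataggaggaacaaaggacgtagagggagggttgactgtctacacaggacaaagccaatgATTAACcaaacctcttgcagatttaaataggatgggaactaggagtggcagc
FGB: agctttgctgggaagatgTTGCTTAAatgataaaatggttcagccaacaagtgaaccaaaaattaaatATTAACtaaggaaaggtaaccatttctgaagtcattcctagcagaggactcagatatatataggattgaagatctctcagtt
FGG: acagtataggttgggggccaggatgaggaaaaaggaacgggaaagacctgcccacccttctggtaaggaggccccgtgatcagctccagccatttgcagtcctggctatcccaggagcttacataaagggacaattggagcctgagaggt
F2: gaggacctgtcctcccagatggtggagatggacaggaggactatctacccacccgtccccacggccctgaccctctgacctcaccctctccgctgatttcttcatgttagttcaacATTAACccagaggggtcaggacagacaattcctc
MBL2: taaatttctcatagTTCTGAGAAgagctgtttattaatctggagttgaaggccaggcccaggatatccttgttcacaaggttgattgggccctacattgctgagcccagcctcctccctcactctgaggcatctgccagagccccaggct
C6: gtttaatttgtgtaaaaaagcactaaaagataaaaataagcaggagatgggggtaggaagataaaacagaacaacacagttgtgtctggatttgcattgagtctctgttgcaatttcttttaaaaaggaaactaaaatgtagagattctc
FGA and FGB each held a GTTAAT match, 52 and 82 bases before the start, and a TTGCNNAA match, 141 and 132 bases before it. F2 held GTTAAT 34 bases before its start, MBL2 held TTCNNNGAA 136 bases before its start, and FGG and C6 held none of these letters in the 150 bases. The RefSeq table held windows for 38 of the 47 members. Within 250 bases before the start, GTTAAT was found in 7 of these 38 (18.4%) against 6.23% of all 35116 windows, TTGCNNAA in 9 (23.7%) against 9.05%, TTCNNNGAA in 10 (26.3%) against 6.57%, and TATAAA in 3 (7.89%) against 10.7%. Each member gave only the window nearest its annotated start. The share of all windows counts every window, whether or not its gene was expressed here, so these shares are over unlike sets. Members that rose (FGA, FGB) and members that fell (F2, C4BPA) in both lines were among those with GTTAAT.

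Of the 13 clotting factors, 5 rose and 2 fell in HepG2, and 5 rose and 6 fell in Huh7 (all genes, 16.5% and 20.1% in HepG2 and 34.9% and 36.4% in Huh7). Besides fibrinogen, the rises were F3, which encodes tissue factor, and F10, the protease that activates prothrombin. F3 read 10.1, 9.85 and 11.9 CPM with Ctrl-siRNA and 17.7, 18.4 and 18.4 CPM with UBL5 siRNA in Huh7, without overlap (log2 fold change 0.80 ± 0.09, adjusted p = 1.1e-05). In HepG2 it read 17.1, 19.1 and 22.8 CPM and 29.8, 25.3 and 29.9 CPM (log2 fold change 0.52 ± 0.14, adjusted p = 0.018). This HepG2 call was lost without Ctrl-siRNA replicate 1 (adjusted p = 0.067) or replicate 2 (adjusted p = 0.063), and likewise without UBL5 siRNA replicate 1 (0.055) or replicate 3 (0.053). F10 went from 40.7, 39.9 and 45 CPM to 72.6, 60.7 and 62.7 CPM in HepG2 (log2 fold change 0.64 ± 0.11, adjusted p = 0.0021). Its Huh7 libraries went from 61, 66.1 and 68.7 CPM to 85.5, 86 and 85.4 CPM (log2 fold change 0.41 ± 0.06, adjusted p = 4.1e-05). For F10 the groups were apart in both lines.

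F2, which encodes prothrombin, fell in both lines and fell further in Huh7. It stood at 536, 596 and 597 CPM in HepG2 controls and 462, 407 and 386 CPM with UBL5 siRNA. Huh7 controls held 314, 363 and 355 CPM and Huh7 cells with UBL5 siRNA 134, 139 and 139 CPM. No libraries overlapped between the siRNA groups, and the log2 fold change was -0.47 ± 0.09 in HepG2 (adjusted p = 0.0043) and -1.30 ± 0.06 in Huh7 (adjusted p = 6.5e-09). The difference between these effects was 0.86 ± 0.11 (log2, HepG2 minus Huh7, adjusted p = 0.00020). F7, the partner of tissue factor, had log2 fold changes of -0.49 ± 0.14 in HepG2 (adjusted p = 0.024) and -0.50 ± 0.11 in Huh7 (adjusted p = 0.0022). The HepG2 call of F7 was lost without Ctrl-siRNA replicate 1 (adjusted p = 0.075) or replicate 2 (adjusted p = 0.084), and likewise without UBL5 siRNA replicate 2 (0.092) or replicate 3 (0.089).

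In the contact system, which starts clotting on charged surfaces and releases bradykinin, KLKB1 (prekallikrein) showed the largest fall of any member in Huh7. It read 3.29, 3.24 and 3.55 CPM with Ctrl-siRNA and 0.663, 0.433 and 0.403 CPM with UBL5 siRNA, from 94, 74 and 73 and 14, 9 and 9 counts. The groups were far apart, with a log2 fold change of -2.71 ± 0.22 (adjusted p = 6.5e-07). In HepG2 its log2 fold change was -1.27 ± 0.47 (adjusted p = 0.065), and -0.85 (adjusted p = 0.049) without Ctrl-siRNA replicate 3. KLKB1 shares 78.0% of its exon bases with another annotated gene, so its counts are uncertain. F11, the factor XI gene and its neighbor on chromosome 4, fell in Huh7 (log2 fold change -1.13 ± 0.18, adjusted p = 0.00016) and had -0.28 ± 0.16 in HepG2 (adjusted p = 0.21), and this HepG2 value passed the threshold without Ctrl-siRNA replicate 3 (adjusted p = 0.021). KNG1, for kininogen, fell by 0.18 on the log2 scale in Huh7 (adjusted p = 0.0048, and 0.15 in a fit over all 12 libraries), and F5, a cofactor of F10, had a log2 fold change of -0.28 ± 0.05 there (adjusted p = 0.00043). In HepG2, KNG1 had 0.32 ± 0.29 (adjusted p = 0.42, and 0.045 without Ctrl-siRNA replicate 3). F12, which starts the contact system, and F13B, a subunit of the fibrin-crosslinking factor XIII, were called in neither line. F12 held 62, 37 and 4 counts in the HepG2 controls, the last being the library that stood apart. In Huh7 its log2 fold change was 0.43 ± 0.21 (adjusted p = 0.080), past the threshold without Ctrl-siRNA replicate 3 (adjusted p = 0.0066) or UBL5 siRNA replicate 1 (0.027).

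Of the 10 genes for inhibitors and fibrinolysis, 2 rose and 1 fell in HepG2, where 16.5% and 20.1% of all genes did. Of the 9 tested in Huh7, 2 rose and 5 fell, where 34.9% and 36.4% of all genes did. SERPINF2, which encodes the plasmin inhibitor alpha-2-antiplasmin, fell in both lines. Its control values were 320.1, 318 and 279 CPM in HepG2 and its values with UBL5 siRNA 175, 129 and 117 CPM. For Huh7 they were 219, 235 and 239 CPM and 83.2, 86.4 and 91.9 CPM. The groups did not overlap, and the log2 fold changes were -1.13 ± 0.15 (adjusted p = 0.00073) and -1.38 ± 0.05 (adjusted p = 2.7e-09). TFPI, the inhibitor of the tissue factor pathway, rose. It went from 386, 443 and 537 CPM to 595, 746 and 972 CPM in HepG2 (log2 fold change 0.75 ± 0.17, adjusted p = 0.0097). In Huh7 it went from 296, 319.7 and 313 CPM to 442, 449 and 484 CPM (log2 fold change 0.59 ± 0.05, adjusted p = 9.9e-07).

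Among the inhibitors, 3 fell in Huh7 with a difference between the lines. PROC, the gene of protein C, which inactivates factors Va and VIIIa, read 66.1, 73.8 and 82.6 CPM with Ctrl-siRNA and 32.5, 33.1 and 37.4 CPM with UBL5 siRNA in Huh7. In HepG2 it read 125, 127 and 110.3 CPM and 129.8, 139 and 115 CPM. The groups overlapped in HepG2 and not in Huh7, the log2 fold changes were 0.08 ± 0.11 and -1.09 ± 0.09, and the difference was 1.19 ± 0.14 (adjusted p = 0.00011). SERPINC1, which encodes antithrombin, had log2 fold changes of 0.10 in HepG2 and -0.68 in Huh7, with a difference of 0.80 ± 0.11 (adjusted p = 0.00029). SERPIND1, for heparin cofactor II, had 0.0007 and -0.52, with a difference of 0.55 ± 0.11 (adjusted p = 0.0043).

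SERPING1, which encodes the C1 inhibitor, rose in Huh7 from 50.9, 55.5 and 50.6 CPM to 83.3, 79.4 and 86.6 CPM without overlap (log2 fold change 0.69 ± 0.06, adjusted p = 6.8e-07). In HepG2 it was low, at 1.91, 1.92 and 2.66 CPM and 3.64, 3.19 and 3.02 CPM (log2 fold change 0.60 ± 0.29, adjusted p = 0.14), and passed the threshold without Ctrl-siRNA replicate 3 (adjusted p = 0.019). CPB2, a carboxypeptidase that slows fibrinolysis, rose in HepG2 (log2 fold change 0.46 ± 0.15, adjusted p = 0.035), and this call was lost without Ctrl-siRNA replicate 1 (adjusted p = 0.062), 2 (0.077) or 3 (0.058), or UBL5 siRNA replicate 2 (0.081) or 3 (0.085). PROZ, the cofactor of a factor Xa inhibitor, fell in Huh7 (log2 fold change -0.57 ± 0.18, adjusted p = 0.014), but not without UBL5 siRNA replicate 1 (adjusted p = 0.059) or 3 (0.065) or in the fit over all 12 libraries (0.080). PROS1, for protein S, was called in neither line, with a Huh7 value of 0.10 ± 0.05 (adjusted p = 0.071, and 0.024 without UBL5 siRNA replicate 1). PLG had a log2 fold change of -1.05 ± 0.45 in HepG2 (adjusted p = 0.097), and of -1.38 without Ctrl-siRNA replicate 1 (adjusted p = 0.034).

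Of the 10 complement activation genes, 2 rose and 2 fell in HepG2, near the 16.5% and 20.1% of all genes. In Huh7 0 rose and 6 fell, against 34.9% and 36.4% of all genes. The effect was more positive in HepG2 for 4 of these 10 and in Huh7 for 1, where all genes gave 9.88% and 11.7%. C3, on which all activation routes converge, fell in Huh7. It read 4243, 4633 and 4458 CPM in Huh7 controls and 2696, 2487 and 2580.1 CPM with UBL5 siRNA. In HepG2 it read 2367, 2320.5 and 2388 CPM and 2839, 2211 and 2203 CPM. The Huh7 groups were apart (log2 fold change -0.76 ± 0.05, adjusted p = 1.5e-07) and the HepG2 groups overlapped (0.03 ± 0.10), with a difference of 0.82 ± 0.12 (adjusted p = 0.00051).

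C1S, a protease of the C1 complex, rose in HepG2 and fell in Huh7. Its HepG2 values were 31.2, 29 and 37.9 CPM with Ctrl-siRNA and 48.7, 45.3 and 53.7 CPM with UBL5 siRNA. In Huh7 they were 67, 75 and 72.1 CPM and 42.4, 42 and 42 CPM. Groups did not overlap in either line, the log2 fold changes were 0.58 ± 0.12 (adjusted p = 0.0067) and -0.74 ± 0.06 (adjusted p = 4.5e-07), and the difference was 1.35 ± 0.14 (adjusted p = 5.9e-05). CFB, the protease of the alternative pathway, followed the same directions. It read 11, 12.7 and 10.9 CPM and 17.7, 19 and 21.2 CPM in HepG2. Its Huh7 values were 22.4, 25.4 and 28.5 CPM and 19.3, 17 and 19 CPM. The log2 fold changes were 0.74 ± 0.14 (adjusted p = 0.0035) and -0.44 ± 0.10 (adjusted p = 0.0018), the groups did not overlap, and the difference was 1.21 ± 0.17 (adjusted p = 0.00033). CFB shares 42.8% of its exon bases with C2 and a further annotated gene, and C2 overlaps them too, so the counts of CFB and C2 are uncertain. C2, the classical pathway counterpart of CFB, fell in Huh7 (-0.59 ± 0.09, adjusted p = 7.0e-05) and had 0.02 ± 0.12 in HepG2, with a difference of 0.64 ± 0.15 (adjusted p = 0.0087).

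**Figure D3:**
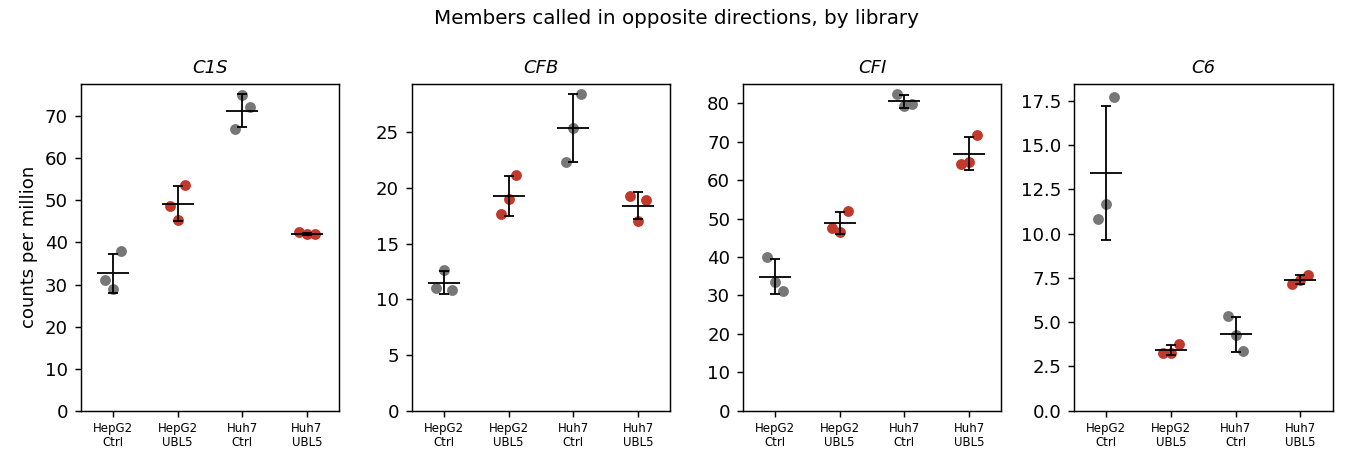
CPM of C1S, CFB, CFI and C6 in each library (points), with the mean and SD of each group (bars, n = 3), gray for Ctrl-siRNA and red for UBL5 siRNA. C1S, CFB and CFI were higher with UBL5 siRNA in HepG2 and lower in Huh7, and C6 went the other way.

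The lectin pathway genes MBL2 and MASP1 fell in HepG2. MBL2, the mannose-binding lectin, stood at 19.6, 18.7 and 26.7 CPM in HepG2 controls and at 11.4, 9.86 and 7.03 CPM with UBL5 siRNA. In Huh7 it stood at 57.1, 58.9 and 54.9 CPM and 23.9, 21.9 and 21.9 CPM. Its groups did not overlap, and the log2 fold change was -1.20 ± 0.21 in HepG2 (adjusted p = 0.0027) and -1.31 ± 0.06 in Huh7 (adjusted p = 1.0e-08). MASP1, a protease that binds MBL2, read 68.8, 117 and 128 CPM and 33.8, 41.3 and 45.3 CPM in HepG2. Its Huh7 libraries read 217, 293 and 255 CPM and 193, 212 and 236 CPM. The groups were apart in HepG2 (log2 fold change -1.39 ± 0.22, adjusted p = 0.0015) and overlapped in Huh7 (-0.23 ± 0.10, adjusted p = 0.052), and the difference was -1.13 ± 0.27 (adjusted p = 0.0088). The Huh7 value of MASP1 passed the threshold without Ctrl-siRNA replicate 1 (adjusted p = 0.0027) or UBL5 siRNA replicate 3 (0.021). MASP2 was called in neither line.

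C4A and C4B are near-identical copies on chromosome 6 whose reads cannot be divided with certainty. In HepG2, C4A held 15.6, 16.5 and 11.5 CPM with Ctrl-siRNA and 18.7, 16.7 and 16 CPM with UBL5 siRNA, and C4B 17.6, 16.8 and 25.2 CPM and 19.2, 18.4 and 18 CPM. In Huh7, C4A held 10, 9 and 11 counts and then 11, 6 and 23, and C4B 30, 22 and 23 counts and then 7, 18 and 12. The HepG2 control library that stood apart held the lowest C4A and the highest C4B value of its group. C4B passed the threshold in Huh7 (log2 fold change -0.83 ± 0.32, adjusted p = 0.036), but it did not by DESeq2 (adjusted p = 0.13), nor without Ctrl-siRNA replicate 1 (0.073), 2 (0.058) or 3 (0.077), or UBL5 siRNA replicate 1 (0.15) or 3 (0.094). With both copies summed, the log2 fold change was 0.05 in HepG2 (adjusted p = 0.76) and -0.27 in Huh7 (adjusted p = 0.35). C1R, the partner of C1S, held 75, 58 and 2 counts in HepG2 controls, the last in the library that stood apart, and 129, 154 and 108 with UBL5 siRNA. Its HepG2 log2 fold change was 1.73 ± 0.77 (adjusted p = 0.11), and 1.15 (adjusted p = 0.0014) without that library.

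Of the 5 terminal complement genes tested, 0 rose and 2 fell in HepG2 (16.5% and 20.1% of all genes), and 1 rose and 3 fell in Huh7 (34.9% and 36.4%). C6, a component of the membrane attack complex, showed the largest fall of any member called in HepG2 and rose in Huh7. It read 10.8, 11.7 and 17.7 CPM with Ctrl-siRNA and 3.27, 3.23 and 3.74 CPM with UBL5 siRNA in HepG2. In Huh7 it read 5.35, 4.24 and 3.35 CPM and 7.15, 7.36 and 7.65 CPM. No libraries overlapped between siRNA groups, the log2 fold changes were -1.98 ± 0.22 (adjusted p = 0.00036) and 0.78 ± 0.15 (adjusted p = 0.00067), and the difference was -2.74 ± 0.30 (adjusted p = 7.4e-05). C8, which joins the complex after C7, has 3 chains. C8G read 6.71, 8.23 and 8.41 CPM and 3.32, 3.66 and 2.03 CPM in HepG2 (log2 fold change -1.37 ± 0.26, adjusted p = 0.0037) and also fell in Huh7 (-0.96 ± 0.23, adjusted p = 0.0027). C8B read 8.14, 10.6 and 8.41 CPM and 3.17, 2.79 and 3.27 CPM in Huh7 (log2 fold change -1.53 ± 0.14, adjusted p = 1.9e-06). In HepG2, C8B had -1.12 ± 0.53 (adjusted p = 0.14), past the threshold without Ctrl-siRNA replicate 3 (adjusted p = 0.020). C8A fell in Huh7 (-0.73 ± 0.08, adjusted p = 4.2e-06) and had -0.09 ± 0.16 in HepG2, with a difference of 0.67 ± 0.18 (adjusted p = 0.016). C5, which starts pore assembly, was called in neither line.

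All 8 complement regulators were called in Huh7, 2 higher and 6 lower, where 34.9% of all genes were higher and 36.4% lower. In HepG2 2 were higher and 2 lower, where 16.5% and 20.1% of all genes were. CD59, which blocks pore formation on host membranes, rose most among Huh7 members. It read 48.1, 45.6 and 47.5 CPM with Ctrl-siRNA and 88, 89.2 and 86.8 CPM with UBL5 siRNA there. HepG2 gave 92.7, 107 and 129 CPM and 149.8, 166 and 202 CPM. The groups did not overlap in either line, with log2 fold changes of 0.93 ± 0.05 in Huh7 (adjusted p = 2.2e-08) and 0.65 ± 0.14 in HepG2 (adjusted p = 0.0071). CD46, a membrane cofactor for cleavage of C3b, fell in both lines (-0.57 ± 0.09 in HepG2, adjusted p = 0.0018, and -0.24 ± 0.04 in Huh7, adjusted p = 0.00026). CD55, which speeds the decay of convertases, rose in Huh7 (0.31 ± 0.10, adjusted p = 0.015), though not without Ctrl-siRNA replicate 1 (adjusted p = 0.056) or UBL5 siRNA replicate 3 (0.063), in the fit over all 12 libraries (0.17) or with total counts as the scale (0.055). In HepG2 its value was 0.46 ± 0.18 (adjusted p = 0.076). CD55 passed the threshold in HepG2 with the replicate number as a block (adjusted p = 0.012), by DESeq2 (0.029), without Ctrl-siRNA replicate 3 (0.039) and without UBL5 siRNA replicate 1 (0.018).

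Among the secreted regulators, CFI, the protease that inactivates C3b and C4b, rose in HepG2 and fell in Huh7. Its HepG2 libraries read 39.9, 33.5 and 31.1 CPM and 47.6, 46.6 and 52 CPM. Those of Huh7 read 82.5, 79.3 and 79.7 CPM and 64.1, 64.7 and 71.8 CPM. The groups did not overlap, the log2 fold changes were 0.48 ± 0.12 (adjusted p = 0.015) and -0.25 ± 0.06 (adjusted p = 0.0019), and the difference was 0.75 ± 0.13 (adjusted p = 0.0014). The HepG2 call of CFI was lost without Ctrl-siRNA replicate 2 (adjusted p = 0.061), and CFI shares 29.4% of its exon bases with another annotated gene. C4BPA and C4BPB encode the chains of C4b-binding protein, a cofactor of CFI. C4BPA fell in both lines, by 0.42 on the log2 scale in HepG2 (adjusted p = 0.018, and 0.11 without UBL5 siRNA replicate 2) and by 0.95 in Huh7 (adjusted p = 5.1e-08). C4BPB fell by 0.90 in Huh7 (adjusted p = 2.8e-06), and the difference between lines was 0.57 ± 0.13 for C4BPA and 0.75 ± 0.14 for C4BPB (adjusted p = 0.0066 and 0.0024). VTN, for vitronectin, which binds the forming pore, fell in Huh7 (-0.58 ± 0.05, adjusted p = 6.8e-07). In HepG2 VTN had 0.37 ± 0.20 (adjusted p = 0.18, and 0.032 with the replicate block), with a difference of 0.99 ± 0.22 (adjusted p = 0.0062). CLU, for clusterin, a further inhibitor of the pore, fell in Huh7 (-0.34 ± 0.05, adjusted p = 9.3e-05) and had -0.08 ± 0.11 in HepG2.

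Tested as an interaction over all 12 libraries, the effect of UBL5 siRNA was more positive in HepG2 than in Huh7 for 15 of 45 members, against 9.88% of all genes, and more positive in Huh7 for 2, C6 and MASP1, against 11.7%. The 15 were F2, F5, F11, SERPINC1, SERPIND1, PROC, C1S, C2, C3, CFB, C8A, C4BPA, C4BPB, CFI and VTN. The median difference of the members was 0.29 on the log2 scale, against 0.01 over all genes tested. This fit gives each gene a single spread for both lines (biological coefficient of variation 0.124), though HepG2 libraries spread more than those of Huh7. For some members the SE of the difference was below that in HepG2 alone (SERPING1, 0.18 against 0.29), and for others above (C1S, 0.14 against 0.12). The p-values of the difference may thus understate the spread of HepG2. The replicate number was not used in this fit, though libraries of the same number may be paired. With the replicate number as a block in both lines, 19 members were more positive in HepG2 and 4 in Huh7. With this block, CD46 (adjusted p = 0.0075) and CD59 (0.030) joined C6 and MASP1 among those more positive in Huh7. Without replicate 3 of both HepG2 groups and with no block, 21 members were more positive in HepG2 and 3 in Huh7. The shares of all genes above are those of the fit to all libraries without a block. All 15 fell in Huh7. In HepG2, C1S, CFB and CFI rose, F2 and C4BPA fell, and no change was called for the others. Without HepG2 Ctrl-siRNA replicate 3, the effects also differed for C1R (adjusted p = 0.00037), KNG1 (0.0018), KLKB1 (0.0023) and C4B (0.028). C1R also passed without HepG2 Ctrl-siRNA replicate 1 (0.020), CPB2 without HepG2 UBL5 siRNA replicate 1 (0.0044) and CD46 without HepG2 UBL5 siRNA replicate 3 (0.0044). The calls of F5 and F11 were lost without Huh7 Ctrl-siRNA replicate 2 (adjusted p = 0.060 and 0.067) or Huh7 UBL5 siRNA replicate 1 (0.052 and 0.066). F5 also lost it without Huh7 Ctrl-siRNA replicate 3 (0.052) or UBL5 siRNA replicate 2 (0.067), and F11 without Huh7 UBL5 siRNA replicate 3 (0.055).

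**Figure D4:**
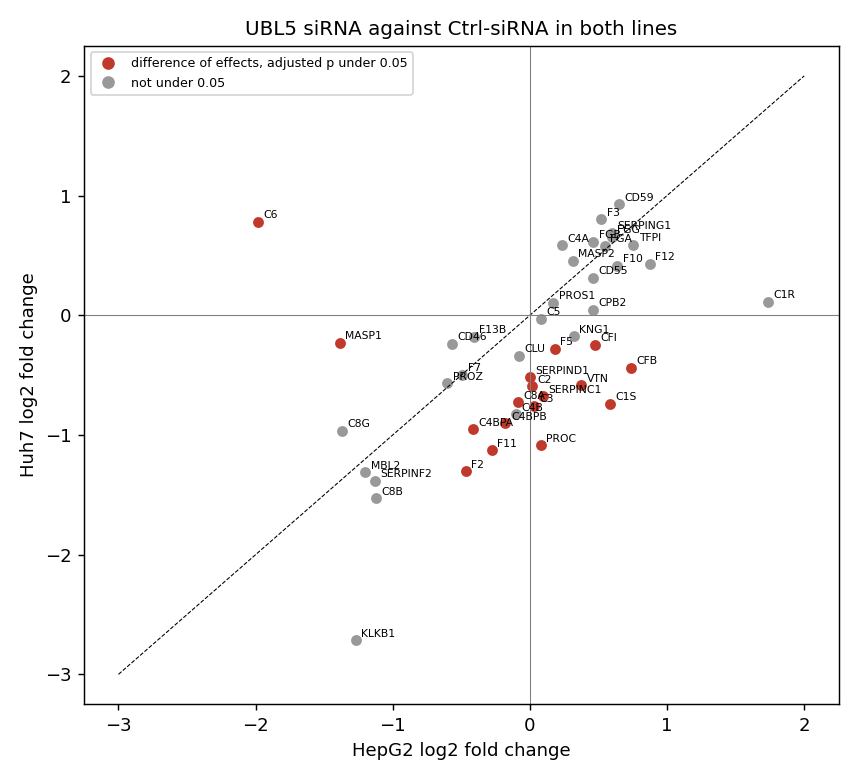
Log2 fold change of each of the 45 members tested in both lines, HepG2 on the x axis and Huh7 on the y axis, with equal effects on the dashed line. Red points (17) have a difference of effects with an adjusted p under 0.05, and all but C6 and MASP1 of these lie below the line.

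The lines also started from different levels. In Ctrl-siRNA cells, 10 of 45 members were at least 2-fold higher in HepG2, against 13% of all genes, and 17 were at least 2-fold higher in Huh7, against 14.8%. Exon length here is that of all annotated exons of a gene, merged over its transcripts (11577 bases for C3, 2534 for F2 and 1904 for VTN). A single transcript can be shorter, and whether the order below holds with transcript lengths was not tested. Per kilobase of such exon, the highest control levels in HepG2 were those of FGG (277 ± 35.1 CPM per kb, SD, n = 3), F2 (227 ± 13.8), C3 (204 ± 2.99) and FGA (202 ± 18.3), of which C3 and FGA differed by less than the spread of FGA. In Huh7 the highest were VTN (714 ± 21.3 CPM per kb), FGB (396 ± 18.3) and C3 (384 ± 16.9), of which FGB and C3 differed by less than their spread. KNG1 differed most, at 3.10, 2.53 and 4.70 CPM in HepG2 and 302, 305 and 287 CPM in Huh7 controls (log2 difference, HepG2 minus Huh7, -6.41 ± 0.15). C1R (-4.70 ± 0.45), SERPING1 (-4.58 ± 0.13) and VTN (-4.04 ± 0.17) were also higher in Huh7. The C1R value, whose HepG2 controls held few counts, was -4.08 without HepG2 Ctrl-siRNA replicate 3. By contrast, C4A (5.10 ± 0.31), C4B (4.25 ± 0.23), MASP2 (3.25 ± 0.29) and F11 (3.10 ± 0.17) were higher in HepG2, and each of these differences passed the test and the 2-fold limit. C6 was higher in HepG2 controls (1.63 ± 0.21), and with UBL5 siRNA its levels were 3.41 ± 0.28 CPM in HepG2 and 7.38 ± 0.253 CPM in Huh7.

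**Figure D5:**
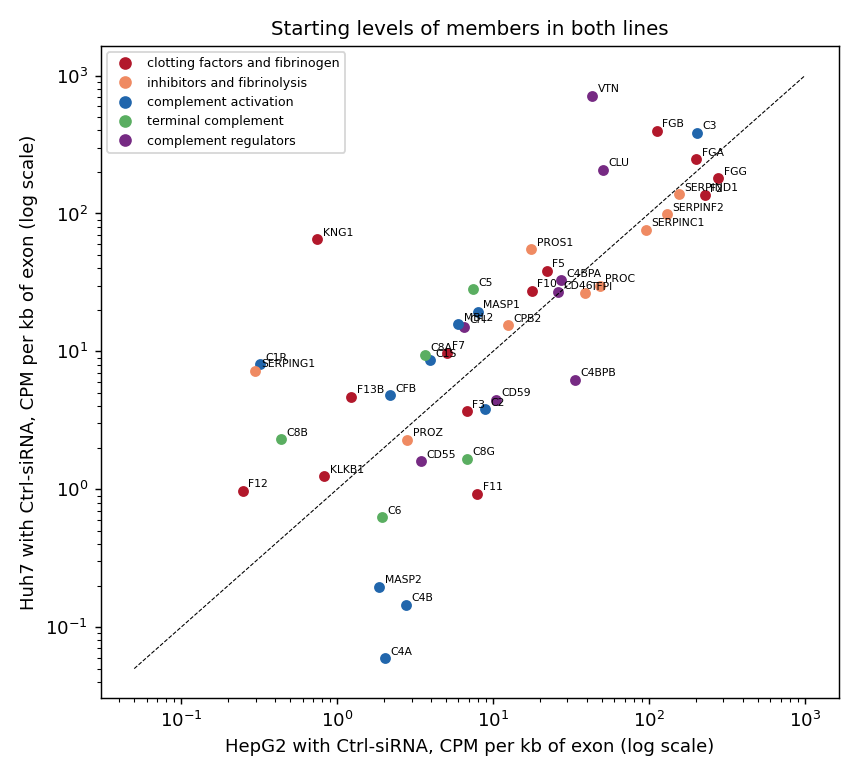
Mean CPM per kilobase of exon (both axes on a log scale) of 45 members in Ctrl-siRNA cells (n = 3), HepG2 on the x axis and Huh7 on the y axis, with equal levels on the dashed line and colors for the role. KNG1 and VTN lie far above the line and C4A, C4B and MASP2 far below it.

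Members that neighbor each other in the genome did not all move together. On chromosome 13, F7 (113105788 to 113120685) fell in both lines while F10 (113122799 to 113149529) rose in both. In the regulator cluster of chromosome 1, C4BPA and CD46 fell in both lines, whereas CD55, which lies between them, rose in Huh7. On chromosome 12, C1S fell in Huh7 while C1R had a log2 fold change of 0.11 ± 0.07 (adjusted p = 0.17). C8A and C8B, side by side on chromosome 1, both fell in Huh7, as did KLKB1 and F11 on chromosome 4.

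A list of 33 other genes of these pathways (receptors, processing enzymes and further inhibitors) was read for comparison. Of the 26 of these tested in HepG2, 6 rose and 7 fell, where 16.5% and 20.1% of all genes did. Of the 24 tested in Huh7, 12 rose and 9 fell, where 34.9% and 36.4% of all genes did. Without HepG2 Ctrl-siRNA replicate 3, 10 rose, and 4 fell without HepG2 Ctrl-siRNA replicate 2 or without either of UBL5 siRNA replicates 2 and 3. Here too the shares of all genes are those with all libraries kept. GGCX, the carboxylase that modifies prothrombin and factors VII and X, fell from 189, 196 and 179 CPM to 100.4, 83.9 and 78.2 CPM in HepG2 (log2 fold change -1.11 ± 0.11, adjusted p = 0.00023) and by 1.64 on the log2 scale in Huh7 (adjusted p = 7.1e-10). C1RL, a C1R-like protease gene that shares exon bases with C1R, had -1.52 ± 0.15 in HepG2 (adjusted p = 0.00024) and -2.92 ± 0.08 in Huh7 (adjusted p = 5.0e-10). F2R, the thrombin receptor PAR1, rose by 1.86 ± 0.19 in HepG2 (adjusted p = 0.00025) and 2.59 ± 0.08 in Huh7 (adjusted p = 8.0e-10). SERPINE2, a thrombin inhibitor, rose in both (1.03 ± 0.16 in HepG2, adjusted p = 0.0013, and 1.77 ± 0.05 in Huh7, adjusted p = 4.1e-10). S100A10, part of a plasminogen receptor, fell in both (-0.85 ± 0.10, adjusted p = 0.00051, and -0.81 ± 0.04, adjusted p = 2.1e-08).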

How the data were processed

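Polyadenylated RNA of HepG2 and Huh7 cells was sequenced from strand-specific libraries. Per the submitters' processing notes, reads were handled with bcl2fastq and FastQC 0.11.9, aligned to GRCh38 with STAR 2.7.6a and counted with featureCounts. The annotation and strand setting of the counting are not given in the sources used here. The deposited tables hold the authors' raw counts per gene and library. They also hold the authors' own DESeq2 1.30.0 comparison (mean, log2 fold change, error, statistic and p-values), which was not used.

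Genes were kept by filterByExpr (count minimum 10, total minimum 15), libraries scaled with TMM, and the counts tested with the quasi-likelihood test of edgeR 4.0.16 (R 4.3.3), with Benjamini-Hochberg adjustment over all genes tested and a threshold of 0.05. Each line was fitted alone. The SE printed with a log2 fold change or difference is its absolute value divided by the square root of the test's F statistic. The difference between lines (interaction) and the control comparison, which also needed a 2-fold difference, came from a fit over all 12 libraries. DESeq2 1.42.0 was an alternative, with RLE or total-count scaling, no filter, libraries left out in turn, a replicate block, a joint fit, HepG2 replicate 3 of both groups left out (added after the data were seen), and C4A with C4B summed. Levels are CPM with TMM factors over the 12 libraries. Exon length (all exons of a gene merged over its transcripts) and overlap are from GENCODE release 44. Promoters are RefSeq's on GRCh38.p14. The steps were run on simulated counts, with the same spread for every gene and line and no outlying library. Those counts differ from the data in both respects. Figures were drawn with matplotlib 3.10.9. For genes with few counts, depth limits the precision.

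Residuals of HepG2 libraries with the same number correlated at 0.41, 0.32 and 0.34 across genes of at least 10 CPM. For Huh7 the values were 0.44, 0.06 and 0.57. The reported fits of both lines used no block, so any such pairing is left out of their SEs and p-values. Whether libraries of the same number were handled together is not given in the sources used here. The members and gene lists were chosen with earlier results of these data known. Values in every library are given for the 4 called members per line with the largest rise and fall (at least 1 CPM), the fibrinogen chains, members called in opposite directions, the 4 with the smallest interaction p, and C4A with C4B. Values in every library of other members were added after their values were seen.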

Additional observations from a re-analysis of the deposited data

Results flagged for a closer look

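For 17 members the effect of UBL5 siRNA differed between HepG2 and Huh7 by the interaction test of edgeR (adjusted p under 0.05). Each value is the HepG2 log2 fold change minus that of Huh7. Among the clotting factors it was 0.86 for F2, 0.88 for F11 and 0.49 for F5. For the inhibitors it was 1.19 for PROC, 0.80 for SERPINC1 and 0.55 for SERPIND1. In complement activation it was 1.35 for C1S, 1.21 for CFB, 0.82 for C3, 0.64 for C2 and -1.13 for MASP1. Terminal components gave -2.74 for C6 and 0.67 for C8A. Regulators gave 0.99 for VTN, 0.75 for CFI, 0.75 for C4BPB and 0.57 for C4BPA. The values of C6 and MASP1 are negative and the other 15 positive, and C6 is the largest in size.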

How the results depend on the processing

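Over 2801 values of members under an alternative, 2692 kept their direction or their lack of a call, 43 lost the threshold, 66 gained it and 0 called values changed sign. The 52 sign changes left were in values called in neither setting. With single libraries left out, the members that rose numbered 7 to 14 in HepG2 and 9 to 12 in Huh7, those that fell 7 to 12 and 24 to 26, those more positive in HepG2 13 to 19 and in Huh7 2 to 3, and those at least 2-fold higher in Huh7 controls 17 to 18. Without replicate 3 of both HepG2 groups, 12 rose and 13 fell in HepG2 and 21 and 3 differences passed. Over all genes, 1985 in place of 3173 fell in HepG2 without UBL5 siRNA replicate 2. With the replicate number as a block, 13 members rose and 9 fell in HepG2, 12 rose and 27 fell in Huh7, and 19 differences were more positive in HepG2 and 4 more positive in Huh7 in place of 2. The block added differences for KLKB1, KNG1, C1R, CD46, CD59 and CLU. In HepG2 it added CD55 and VTN and changed no other member's call. In Huh7, where libraries of the same number correlated at 0.44, 0.06 and 0.57, the block added F12, PROS1 and MASP1. Total-count scaling moved the median of all genes to -0.14 in the control comparison (-0.02 with TMM), where F7 and C3 then passed 2-fold and CD55 did not. The other pathway genes more positive in HepG2 numbered 4 in place of 7 without Huh7 UBL5 siRNA replicate 2, and those more positive in Huh7 3 in place of 5 without Huh7 UBL5 siRNA replicate 3. The shares of all genes under each of these settings are not printed here, and counts over all genes can move with the setting too. Gains or losses in these counts are therefore not read as results about the members. The causes were not tested. Depth limits C4A, C4B, MASP2 and KLKB1 in Huh7 and C8B, SERPING1 and KLKB1 in HepG2. In HepG2 Ctrl-siRNA replicate 3, C1R held 2 counts and F12 held 4, though that library had the highest total count (29744471). Ctrl-siRNA replicates 1 and 2 of HepG2 held 75 and 58 counts of C1R and 62 and 37 of F12.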

Other observations

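As a share of all counts, the members together went from 0.851% ± 0.0375 with Ctrl-siRNA to 0.925% ± 0.03 with UBL5 siRNA in HepG2 and from 1.55% ± 0.0416 to 1.33% ± 0.0193 in Huh7 (SD, n = 3). The complement activation genes went from 0.518% ± 0.0233 to 0.298% ± 0.0108 in Huh7 and from 0.257% ± 0.00305 to 0.249% ± 0.0365 in HepG2. C3 holds most of these counts. Across members, which are not independent replicates, the log2 fold changes of both lines had a Spearman rho of 0.63 (45 genes). Their rho with the number of exons was -0.16 in HepG2 (46 genes) and -0.15 in Huh7 (45 genes), and with gene length -0.08 and 0.15.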
